A study of Rattus norvegicus with 42 samples.

Results

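Cell-cycle inhibitors and p53-pathway genes were examined in the hippocampus of neonatal rats 72 hours after a single dose of an antiseizure drug. The genes were chosen by symbol: Cdkn1a, Cdkn1b, Cdkn2c, Cdkn2d, Mdm2, Gadd45a and Ccng1. Of these 7 symbols, 6 were found, each as 1 RefSeq transcript among 15516 in the count table, and all 6 passed the filter on low counts that kept 13062 transcripts. Cdkn2d was not analysed here.

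Wild-type male Sprague Dawley pups received an intraperitoneal injection on postnatal day 7 of PB (phenobarbital, at 75 mg/kg), of LEV (levetiracetam, at 200 mg/kg) or of the saline vehicle (VEH), and went back to the dam. PB is a barbiturate that enhances GABA-A receptor currents, and LEV binds the synaptic vesicle protein SV2A. Hippocampi were taken on postnatal day 10, and 1 library was made per animal, from 13 VEH, 14 PB and 14 LEV animals. Whole hippocampus was sequenced, so fewer cells of a type and less RNA per cell cannot be told apart.

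Cdkn1a (p21) and Cdkn1b (p27) hold back the cell cycle by binding complexes of cyclins with cyclin-dependent kinases, while Cdkn2c (p18) binds the kinases Cdk4 and Cdk6 themselves. The transcription factor p53 is activated by DNA damage and other stress, and it raises the transcription of Cdkn1a, of Gadd45a, which acts in growth arrest and DNA repair, of Ccng1 (cyclin G1), and of Mdm2, the ubiquitin ligase that in turn degrades p53. In the early postnatal hippocampus, dividing cells remain in the dentate gyrus, and cells that leave the cycle differentiate into neurons and glia.

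The libraries held between 9499492 and 14488134 estimated counts. Values below are normalized counts, that is, counts scaled to a common effective library size, and every fold change is a log2 difference with its SE from edgeR's quasi-likelihood test. A transcript was called changed when its Benjamini-Hochberg adjusted p was under 0.05 and the higher level exceeded the lower by at least 25%, which is named the fold limit below. The samples carry 2 forms of code, one in animals 1 to 6 of each group and the other in animals 7 to 14. The form of code was an additive term in the model. Animals came from 2 orders, but the labels do not say that the form of code is the order. One further VEH animal, number 7, is labelled as excluded and was left out. The paper's reason for excluding a control sample is its coverage. Its average coverage was far above that of the other samples, and its genomic coverage far below. All 12 symbols of a list of hippocampal neuron markers were detected. Levels of different genes were not compared, since transcript lengths were not used here.

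The 6 transcripts lie on the rn6 assembly at chr20:6348422-6358865 (Cdkn1a, NM_080782), chr4:168689163-168693965 (Cdkn1b, NM_031762), chr5:129347732-129352887 (Cdkn2c, NM_131902), chr7:60719066-60743329 (Mdm2, NM_001108099), chr4:97782512-97784815 (Gadd45a, NM_024127) and chr10:25903925-25910299 (Ccng1, NM_012923). None of these spans overlaps another transcript of the count table. The 250 bases before the start of each gene, as RefSeq gives them on the later assembly GRCr8, were searched on both strands for the p53 half-site, a 10-base element, for the TATA box as TATAAA, for the CCAAT box and for the GC box as GGGCGG. Matches to different motifs did not overlap. A p53 half-site was matched in 4 of the 6 promoters, against 6.64% of 33469 rat promoters of the same length. The match began 201 bases before the start of Cdkn1a, 232 before Ccng1, 48 before Gadd45a and 11 before Cdkn2c. Mdm2 and Cdkn1b held none in this window. CCAAT was found in 4 of the 6 (34.0% of all promoters), GGGCGG in 5 (30.5%) and TATAAA in 0 (12.9%). The promoters of Cdkn1a and Ccng1 are shown because these 2 genes carried the differences described next. Capitals mark the motif matches, the first of them in each promoter being the p53 half-site. The stretches are chr20:7150682-7150931 on the plus strand and chr10:25684877-25685126 on the minus strand of GRCr8, each written 5′ to 3′.
Cdkn1a: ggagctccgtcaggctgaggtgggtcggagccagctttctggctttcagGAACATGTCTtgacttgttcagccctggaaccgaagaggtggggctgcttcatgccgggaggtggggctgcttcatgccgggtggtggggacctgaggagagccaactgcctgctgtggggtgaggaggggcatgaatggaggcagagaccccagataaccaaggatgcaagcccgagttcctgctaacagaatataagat
Ccng1: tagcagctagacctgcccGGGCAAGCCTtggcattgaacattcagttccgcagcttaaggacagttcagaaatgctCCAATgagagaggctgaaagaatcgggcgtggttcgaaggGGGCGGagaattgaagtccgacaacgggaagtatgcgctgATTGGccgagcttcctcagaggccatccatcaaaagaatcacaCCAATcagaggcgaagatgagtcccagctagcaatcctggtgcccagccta
The remaining capitals in the Ccng1 stretch are 3 matches to CCAAT, one of them on the opposite strand, and 1 to GGGCGG, while Cdkn1a held neither motif. A match is a description of the letters only.

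The first question was whether PB changed these genes relative to VEH. None of the 6 was called, where 0.605% of all tested transcripts were (79 of 13062). DESeq2 also called 0 of the 6, with 1 at an adjusted p under 0.05. With the adjusted p alone, without the limit on fold change, edgeR returned 1 member, Ccng1, against 5.39% of all transcripts. At an unadjusted p under 0.05 there were 2, Ccng1 and Cdkn1a, where 20.2% of all transcripts passed. Ccng1 fell by 8.62%, and Cdkn1a was 24.9% above VEH. The ranges of PB and VEH animals overlapped for every member.

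Cdkn1a, the p21 inhibitor, ranged from 82.6 normalized counts in VEH animal 13 to 141 in VEH animal 14, with a median of 101.6. PB animals ranged from 96.1 (animal 11) to 215 (animal 3), with a median of 121. Of 14 PB animals, 12 exceeded the mean of VEH animals with the same form of code. The highest VEH animal was exceeded by 4 of them, and 0 lay below the lowest, but the 2 groups overlapped over most of the VEH range. Means were 107 ± 18.4 in VEH (SD, n = 13) and 134 ± 33.1 in PB (SD, n = 14). The log2 fold change was 0.32 (SE 0.12, 95% interval 0.09 to 0.55), with an adjusted p of 0.0910 by edgeR's quasi-likelihood test, so that the difference did not pass the test. As a fold change it was 1.249, also under the limit. It was 0.47 (SE 0.17) in animals 1 to 6 and 0.20 (SE 0.15) in animals 7 to 14, and the difference between these 2 values had an adjusted p of 0.703. Without PB animal 3 the log2 fold change was 0.26, and with the excluded VEH animal kept it was 0.21 (adjusted p = 0.422).

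Ccng1, cyclin G1, ranged from 2696 to 3376 normalized counts in VEH animals, with a median of 2976. PB animals ranged from 2069 (animal 2) to 3208 (animal 14), with a median of 2786. Of 14 PB animals, 13 had less than the mean of VEH animals with the same form of code, and 4 had less than the lowest VEH animal. The means were 3015 ± 252 (SD, n = 13) and 2763 ± 253 (SD, n = 14). Ccng1 fell by 0.13 on the log2 scale (SE 0.04, 95% interval -0.21 to -0.05; edgeR quasi-likelihood test, adjusted p = 0.0430), a change smaller than the fold limit. The log2 fold change was -0.10 (SE 0.06) in animals 1 to 6 and -0.16 (SE 0.05) in animals 7 to 14. Single animals moved the adjusted p across the threshold. It stayed under 0.05 in 25 of 41 fits that each left out 1 animal, with a range from 0.0223 to 0.0753, and without PB animal 2 the log2 fold change was -0.11 (adjusted p = 0.0734). The 41 fits include those without a LEV animal, which is in neither group compared here. All of those stayed under 0.05 (at most 0.0496, without LEV animal 4). Every fit above 0.05 thus left out a VEH or a PB animal.

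Markers of hippocampal neurons were also lower after PB. Their sum was 45438 ± 2841 normalized counts in VEH (40331 to 51607) and 41193 ± 2853 in PB (34190 to 45616), and none of them was at 0 in every animal. Of 15 transcripts, 14 had a negative log2 fold change (median -0.14), 4 fell at an adjusted p under 0.05 (26.7%, beside 5.39% of all transcripts), and 0 passed the fold limit. Apart from treatment and form of code, this sum and Ccng1 gave r = 0.288 over the 41 animals (permutation p = 0.136, adjusted 0.385) and rho = 0.286 (permutation p = 0.0831, adjusted 0.302), with r = 0.717 in animals 1 to 6, -0.10 in animals 7 to 14, and 0.085 without PB animals 2 and 7. A second list, of immature neuron markers, did not fall with the first. Its sum was 44016 ± 3107 in VEH and 44928 ± 3142 in PB. Of its 9 transcripts, 7 had a positive log2 fold change between PB and VEH (median 0.20). By edgeR's test 2 of the 9 rose at an adjusted p under 0.05, and 0 were called. The part of either list in the difference of Ccng1 was not tested.

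**Figure D1:**
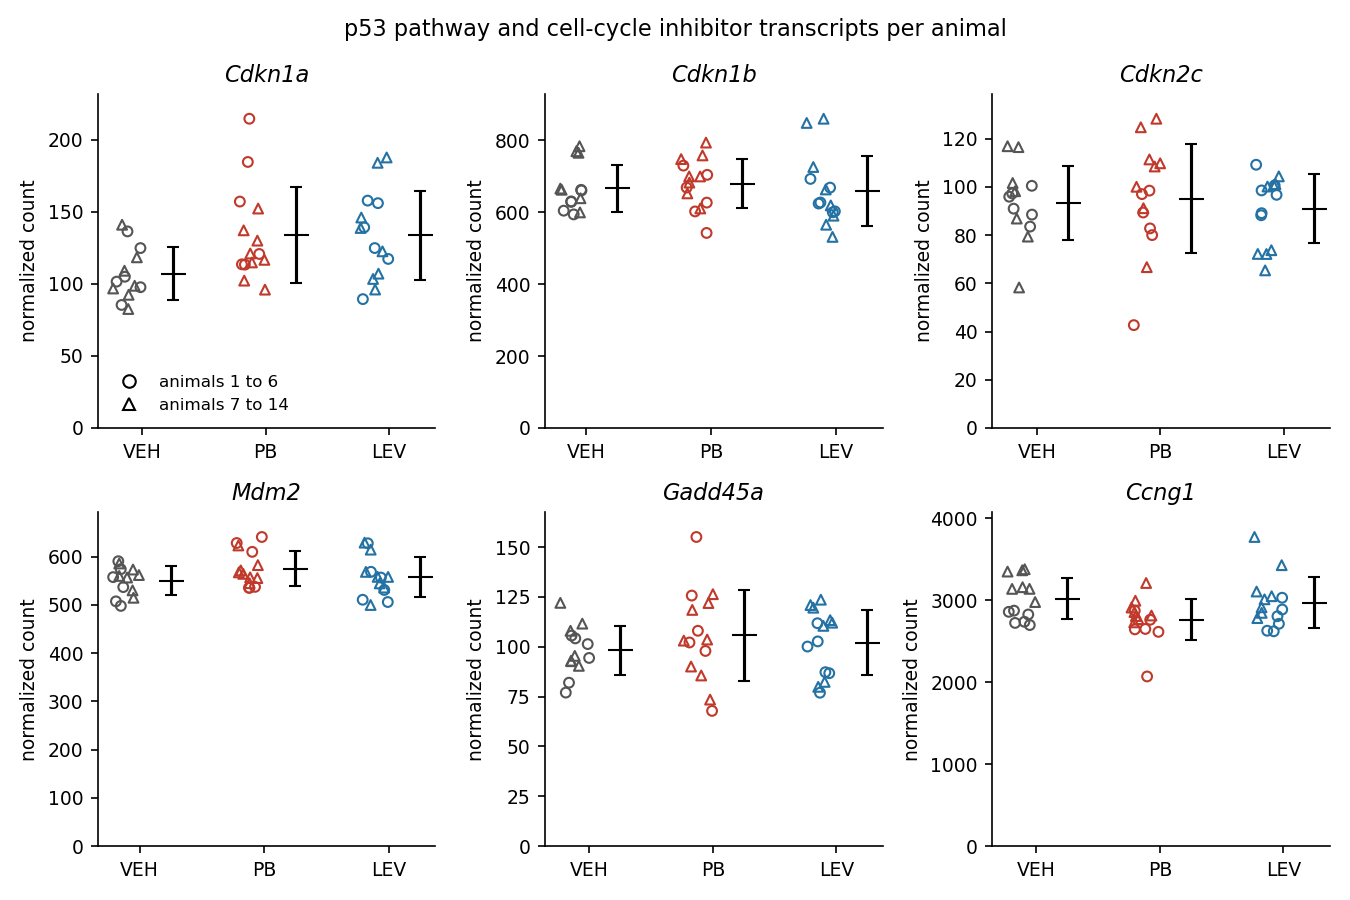
Normalized counts (vertical axis, linear and starting at 0) of the 6 transcripts in each VEH, PB and LEV animal, 1 panel per gene. Circles are animals 1 to 6 and triangles animals 7 to 14 of each group, and the bar with whiskers is the mean with its SD. All groups overlap, PB animal 3 stands highest for Cdkn1a at 215, and PB animal 2 lowest for Ccng1 at 2069.

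The other 4 members did not differ between PB and VEH beyond their spread. Gadd45a was at 98.3 ± 12.2 normalized counts in VEH (77.0 to 122) and at 106 ± 23.0 in PB (67.9 in animal 2 to 155 in animal 5). PB animals thus covered the whole VEH range and went past it on both sides. The log2 fold change was 0.10 (95% interval -0.09 to 0.30), with an adjusted p of 0.599 by the same edgeR test. Mdm2 was at 550 ± 29.9 in VEH (498 to 591) and 575 ± 36.3 in PB (535 to 641), a log2 fold change of 0.07 (-0.01 to 0.14, adjusted p = 0.342). No PB animal was as low as the lowest VEH animal for Mdm2 and 4 were above the highest, but the groups overlapped between these. Cdkn1b was at 667 ± 65.4 in VEH (594 to 784) and 680 ± 68.5 in PB (543 to 794), a log2 fold change of 0.02 (-0.09 to 0.14, adjusted p = 0.861). Cdkn2c was at 93.4 ± 15.4 in VEH (58.3 to 117) and 95.1 ± 22.6 in PB (42.7 in animal 2 to 128), a log2 fold change of 0.02 (-0.21 to 0.24, adjusted p = 0.957). The intervals of Mdm2 and Cdkn1b end below a log2 change of 0.15, while that of Cdkn2c, with fewer counts, is wider. The median log2 fold change of the 6 was 0.04, beside 0.00 over all tested transcripts, and 5 of the 6 were positive.

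LEV was compared with the same 13 VEH animals, so this comparison shares its controls with the one above. None of the 6 members was called, where the call rate over all transcripts was 0% (0 of 13062). DESeq2 called 0 members too. By edgeR's adjusted p alone there was also no member, against 0.00766% of all transcripts (1 transcript), and at an unadjusted p under 0.05 there was 1, Cdkn1a, against 5.84%. Cdkn1a ranged from 89.5 normalized counts in LEV animal 5 to 188 in LEV animal 9, with a median of 132. Of 14 LEV animals, 11 exceeded the mean of VEH animals with the same form of code and 5 exceeded the highest VEH animal, while the lowest animals lay inside the VEH range. The mean was 134 ± 30.7 (SD, n = 14). The log2 fold change was 0.32 (SE 0.12, 95% interval 0.09 to 0.56), 25.2% above VEH, with an unadjusted p of 0.00744 that was number 141 of 13062 in rank and an adjusted p of 0.681 by edgeR's quasi-likelihood test. Animals 1 to 6 gave 0.27, and animals 7 to 14 gave 0.36. With the excluded VEH animal kept it was 0.21 (adjusted p = 0.769).

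The other members lay close to VEH after LEV. Ccng1 was at 2969 ± 313 normalized counts (2619 in animal 5 to 3769 in animal 8), with a log2 fold change of -0.03 (95% interval -0.11 to 0.05, adjusted p = 0.973). LEV animal 8 was the highest of all 41 animals for Ccng1. Mdm2 was at 558 ± 42.1 (500 to 629), with a log2 fold change of 0.02 (-0.06 to 0.10). Gadd45a was at 102 ± 16.4 (77.0 to 124) and 0.05 (-0.14 to 0.24). Cdkn1b was at 659 ± 97.0 (532 in animal 12 to 861 in animal 7) and -0.02 (-0.14 to 0.10). Cdkn2c was at 90.9 ± 14.3 (65.4 to 109) and -0.04 (-0.27 to 0.18). The adjusted p of Mdm2, Gadd45a, Cdkn1b and Cdkn2c was 0.989 in each case. LEV and VEH ranges overlapped for all 6, and 3 of the 6 differences were positive.

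PB and LEV were then compared directly. None of the 6 was called by edgeR or DESeq2, where 0.582% of all transcripts were called by edgeR (76 of 13062). No member had an adjusted p under 0.05, where 4.45% of all transcripts did. At an unadjusted p under 0.05 there was 1, Ccng1, against 19.6%. Cdkn1a had the same mean after both drugs, 134, with a log2 difference of -0.00 and a 95% interval from -0.23 to 0.22 (adjusted p = 0.993). The interval spans folds of 0.854 to 1.17, so a true difference within that span is not excluded by these animals. For Ccng1, 12 of 14 PB animals had less than the mean of LEV animals with the same form of code, and the log2 difference was -0.10 (SE 0.04, 95% interval -0.18 to -0.02, edgeR adjusted p = 0.115). For the other 4 members the log2 differences lay between 0.04 and 0.06, with adjusted p values from 0.544 to 0.828.

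**Figure D2:**
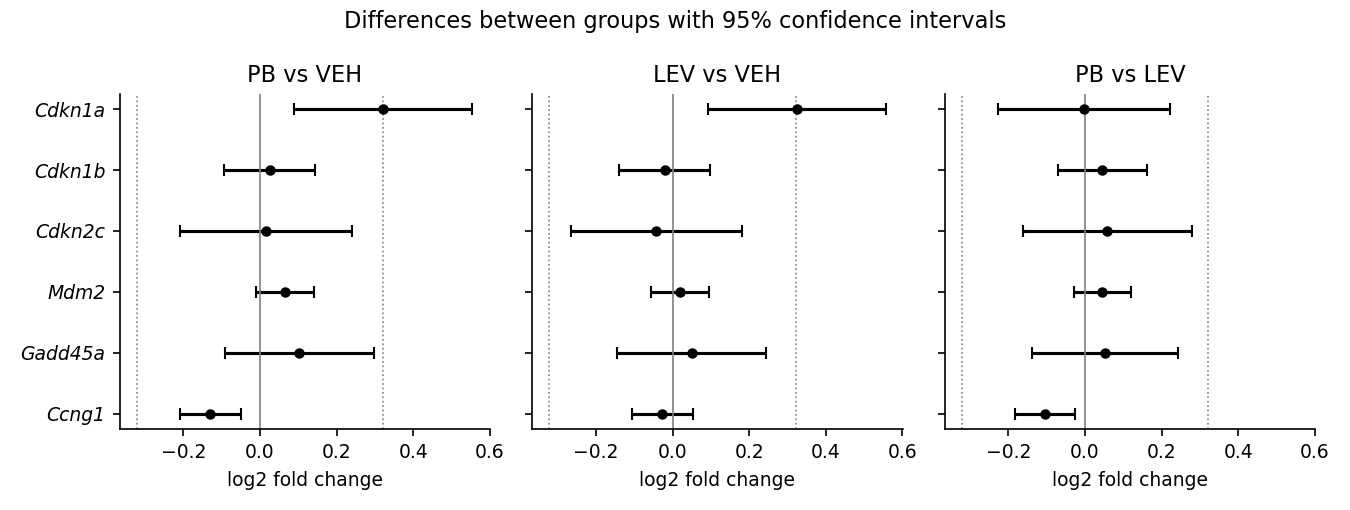
Log2 fold changes (horizontal axis) of the 6 transcripts for PB against VEH, LEV against VEH and PB against LEV, with 95% intervals from edgeR's model and dotted lines at the fold limit. Cdkn1a sits at 0.32 after either drug against the same VEH animals and at -0.00 between the drugs, and the Ccng1 interval between PB and VEH lies wholly below 0.

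The difference between animals with either form of code was tested for each member. For no member did the effect of a drug differ between animals 1 to 6 and 7 to 14 at an adjusted p under 0.05, where 0.0689% of all transcripts did for PB against VEH, 0.842% for LEV against VEH and 0.023% for PB against LEV. The smallest unadjusted p among these tests was 0.0151, for Cdkn2c between PB and LEV. That log2 difference was -0.25 in the first of these sets and 0.28 in the second, a gap of -0.53 (SE 0.21) with an adjusted p of 0.649. PB animals 1 to 6 had Cdkn2c at 81.7 ± 20.5 normalized counts (SD, n = 6), and PB animals 7 to 14 had it at 105 ± 19.6 (SD, n = 8). Apart from treatment, Ccng1 was lower in animals 1 to 6 than in animals 7 to 14 by a log2 difference of -0.17 (SE 0.03, edgeR adjusted p = 6.8e-05). In VEH animals the Ccng1 means were 2784 ± 75.6 (SD, n = 6) and 3213 ± 152 (SD, n = 7), and the 2 sets did not overlap, with 2871 the highest of the first and 2976 the lowest of the second. Among all transcripts, 30.2% had an adjusted p under 0.05 between the forms of code. For Cdkn1b the difference was -0.12 (SE 0.05, adjusted p = 0.0525), and for the other 4 members the adjusted p was 0.443 or more.

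**Figure D3:**
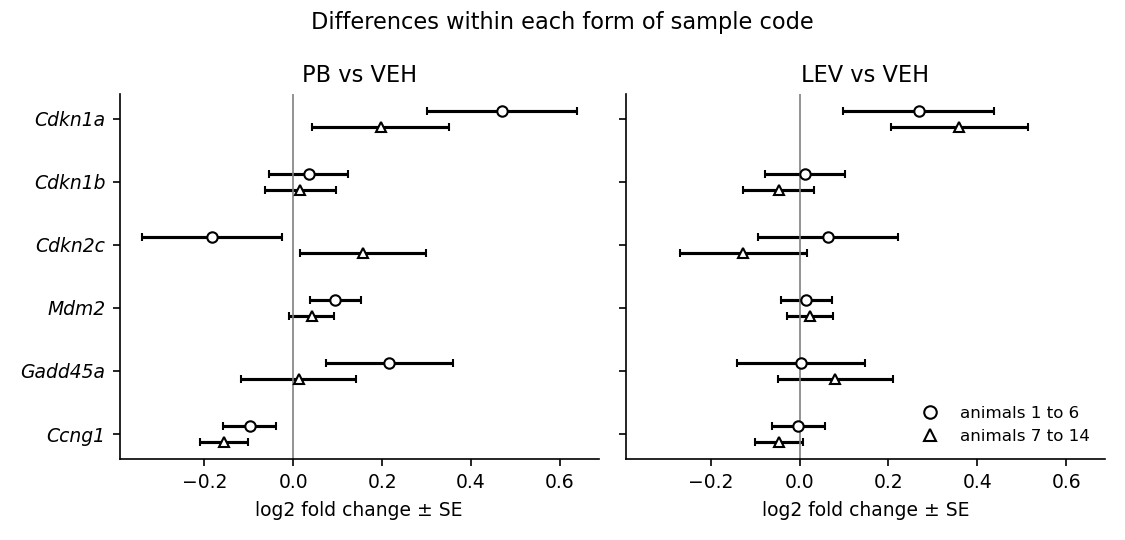
Log2 fold changes (horizontal axis) of each drug against VEH for the 6 transcripts in animals 1 to 6 (circles) and in animals 7 to 14 (triangles) taken separately, with whiskers of 1 SE from the model with a code form by treatment term. Cdkn1a is at 0.47 and 0.20 after PB and at 0.27 and 0.36 after LEV, and Cdkn2c lies on opposite sides of 0 after PB, at -0.18 and 0.16.

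The members also differed in how much they varied between animals of one group. The biological coefficient of variation, the spread that edgeR estimates beyond counting error, was 19.2% for Cdkn1a, where the median of the 201 transcripts nearest in level was 12.4%. For Cdkn1b it was 10.1% beside 7.21%, and for Cdkn2c 17.4% beside 14.0%. Mdm2 had the smallest of the 6, at 5.83% beside 7.67%. Gadd45a (15.0% beside 13.6%) and Ccng1 (7.20% beside 6.78%) lay near their neighbours.

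Pairs of members were correlated over the 41 animals after the mean of each treatment and form of code had been removed, with permutations inside those 6 sets of animals and adjustment over 15 pairs. Cdkn1b and Mdm2 varied together, with Pearson's r = 0.581 (permutation p = 0.00013, adjusted 0.00195) and Spearman's rho = 0.573 (permutation p = 0.00023, adjusted 0.00345). Without the 2 animals farthest from the median, r was 0.486, and within animals 1 to 6 and 7 to 14 it was 0.671 and 0.618. Cdkn1a and Gadd45a gave r = 0.473 (permutation p = 0.00562, adjusted 0.0421) and rho = 0.493 (permutation p = 0.00259, adjusted 0.0194). Without PB animal 3 and LEV animal 9 it was 0.438. It was stronger in animals 1 to 6 (0.695) than in animals 7 to 14 (0.255), a difference that was not tested. The other 13 pairs had adjusted p values of 0.267 or more.

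Lists of markers of other cell types, summed per animal, were set beside the members in the same way, 66 relations in all. Of these, 2 passed the adjustment by both measures. The sum of 13 choroid plexus transcripts (such as Ttr, transthyretin, and Folr1) went with Cdkn1a, with r = 0.813 and rho = 0.817 (permutation p = 1e-05 for each, the smallest that these permutations can give, adjusted 0.00066). It was 0.752 in animals 1 to 6, 0.866 in animals 7 to 14, and 0.794 without the 2 farthest animals. The sum ranged from 351 to 57103 normalized counts in VEH (median 3181), from 339 to 89455 in PB (median 9142) and from 427 to 66918 in LEV (median 23413). All 13 transcripts were above VEH in mean after each drug by the fitted fold change, 0 of the 13 passed the test, and none was at 0 in every animal. Choroid plexus lies against the hippocampus in the lateral ventricle. With the log2 of this sum added to the model as a covariate, a fit chosen after seeing the data, Cdkn1a rose by 0.08 on the log2 scale per doubling of the sum (SE 0.01, edgeR adjusted p = 1.3e-07). The drug effects on Cdkn1a were then 0.23 (SE 0.08, adjusted p = 0.0595) for PB and 0.23 (SE 0.08, adjusted p = 0.572) for LEV.

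The sum of 18 transcripts of mature oligodendrocytes, the cells that make myelin, went with Gadd45a, with r = 0.680 (permutation p = 3e-05, adjusted 0.00099) and rho = 0.582 (permutation p = 0.00025, adjusted 0.00825). Without PB animals 2 and 5, the animals with the lowest and the highest Gadd45a, r was 0.521. The sum was 15218 ± 4584 in VEH, 15959 ± 4902 in PB and 19091 ± 3970 in LEV, with ranges of 10662 to 27205, 7148 to 28197 and 13982 to 27351. With this sum as a covariate, also chosen after seeing the data, Gadd45a rose by 0.44 per doubling (SE 0.08, edgeR adjusted p = 0.000669), and its log2 fold changes were 0.06 for PB and -0.11 for LEV. The part of either cell type in the differences between groups was not tested beyond these fits.

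**Figure D4:**
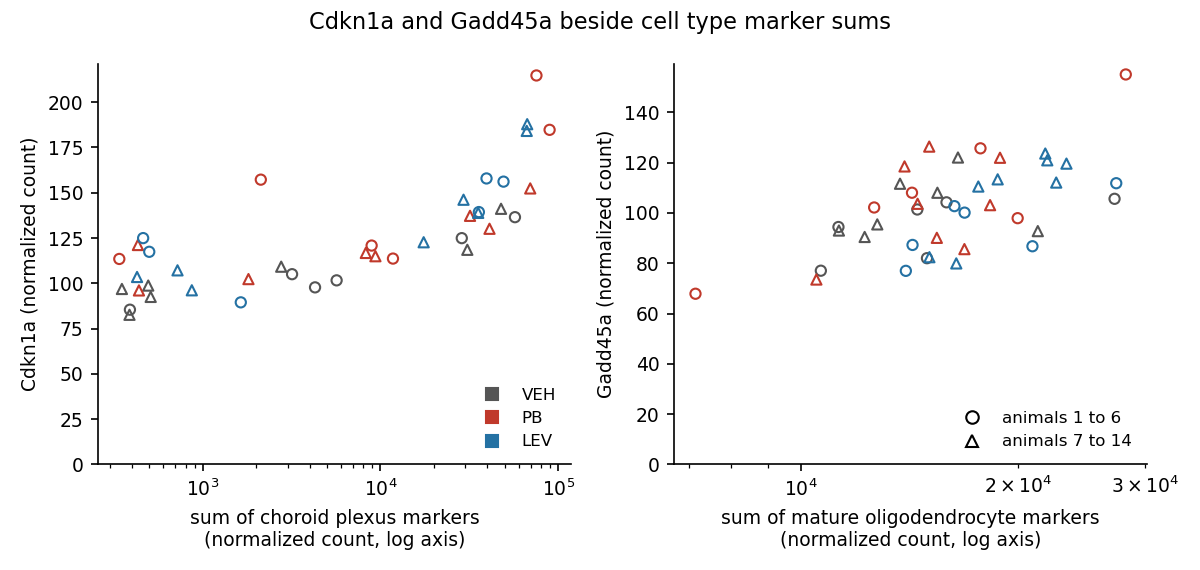
Normalized counts of Cdkn1a against the summed choroid plexus markers (left) and of Gadd45a against the summed mature oligodendrocyte markers (right) in 41 animals, with counts on a linear vertical axis and sums on a log horizontal axis. Colours are VEH, PB and LEV, circles are animals 1 to 6 and triangles animals 7 to 14, and both genes run higher where the sum is higher.

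The transcripts most like each member over the 41 animals, with the form of code removed, were taken from 11019 transcripts with a mean of at least 50 normalized counts. These correlations are a description, since all points share the same libraries and treatments. Cdkn1a was most like Foxj1 (r = 0.858), the transcription factor of motile cilia, and Cfap52 (0.858) and Drc1 (0.857), which are parts of the ciliary axoneme. Gadd45a was most like Mbp, myelin basic protein (0.653), Cldn11, a claudin of myelin (0.649), and Creb3l1 (0.643). Ccng1 was nearest to Rab6a (0.889), a Golgi GTPase, Tmem50b (0.861) and Pfn2 (0.855), a profilin of neurons. Cdkn1b was nearest to Hmgn2 (0.738), Rpl23 (0.728) and Hmgb1 (0.716), and Mdm2 to Arf4 (0.684), Hsf2 (0.668) and Ccnc (0.628). The nearest of Cdkn2c were Ap3d1 (0.706), Pcyt2 (0.695) and Serpinf1 (0.688).

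The rest of the pathway was read from 5 lists that together held 84 tested transcripts of 80 symbols. None of the 84 was called in any of the 3 comparisons, and none had an adjusted p under 0.05 by edgeR's test. At an unadjusted p under 0.05 there were 20 of 84 (23.8%) between PB and VEH, 2 (2.38%) between LEV and VEH and 20 (23.8%) between PB and LEV, beside 20.2%, 5.84% and 19.6% of all transcripts. These lists thus stood near the background in each comparison.

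Among 13 regulators of p53, 12 had a positive log2 fold change between PB and VEH (median 0.08), and 3 had an unadjusted p under 0.05. Ppp1r13b, which steers p53 towards apoptosis genes, was at -0.08 (adjusted p = 0.0994 by edgeR's test). For LEV against VEH, 7 of the 13 were positive and 0 had an unadjusted p under 0.05.

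Other targets of p53 gave 38 transcripts of 36 symbols, of which 22 were positive after PB (median 0.03) and 22 after LEV (median 0.01). Pidd1 and Triap1 are each listed as 2 rows with the same values. The 3 with the smallest p were all below VEH after PB. Ddit4, an inhibitor of mTOR signalling, was at 1013 ± 91.3 normalized counts in VEH, 908 ± 107 in PB and 1025 ± 102 in LEV, with log2 differences of -0.16 between PB and VEH (adjusted p = 0.0864) and -0.17 between PB and LEV (adjusted p = 0.0537). Sesn1, a stress-responsive sestrin, was at -0.15 (adjusted p = 0.0775) and Tigar, a regulator of glycolysis, at -0.12 (adjusted p = 0.0819) between PB and VEH. Like Ccng1, these genes lay below VEH, while Cdkn1a, Gadd45a and Mdm2 lay above it.

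Paralogs of the members and other inhibitors gave 9 transcripts, with 4 at an unadjusted p under 0.05 between PB and VEH. Cdkn1c (p57), the third member of the p21 family, has 3 tested transcripts that lie on nearly the same span, so that the division of reads between them is uncertain. NM_182735 was at 179 ± 71.3 in VEH, 244 ± 79.3 in PB and 193 ± 52.4 in LEV, with a log2 fold change of 0.47 for PB (SE 0.15, edgeR adjusted p = 0.0613) and 0.14 for LEV (adjusted p = 0.949). NM_001033757 was at 0.41 for PB (adjusted p = 0.185) and 0.37 for LEV (adjusted p = 0.844). The third, NM_001033758, which the rule for named genes did not take, was at only 13.7 ± 12.3 normalized counts in VEH and 10.9 ± 7.51 in PB, with a log2 fold change of -0.32 for PB (SE 0.49, adjusted p = 0.774) and 0.64 for LEV (SE 0.46, adjusted p = 0.914). Gadd45b was at 91.2 ± 12.3 in VEH and 78.7 ± 20.4 in PB, a log2 fold change of -0.21 (adjusted p = 0.215), opposite in sign to its paralog Gadd45a.

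The cyclins, kinases and pocket proteins on which the inhibitors act were listed with E2f1, E2f3, E2f4 and Pcna, 16 transcripts in all. Positive differences were found in 12 of them between PB and VEH and in 3 between LEV and VEH, with median log2 fold changes of 0.02 and -0.06. Between PB and LEV, Cdk6, a kinase bound by Cdkn2c, was at 0.52 (SE 0.19, adjusted p = 0.104) from only 29.3 ± 9.63 and 20.6 ± 7.38 normalized counts. Ccnd2, cyclin D2, was at 0.19 (adjusted p = 0.0851), and Rb1, the retinoblastoma protein, at 0.10 (adjusted p = 0.107). A list on the turnover of Cdkn1b gave 8 transcripts, with Foxo1 and Foxo3 also on it. Between PB and VEH, Skp1 was at -0.08 (edgeR adjusted p = 0.178) and Cops5 at -0.04 (adjusted p = 0.453). Skp2, which marks p27 for degradation, was at 0.01 (adjusted p = 0.952).

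**Figure D5:**
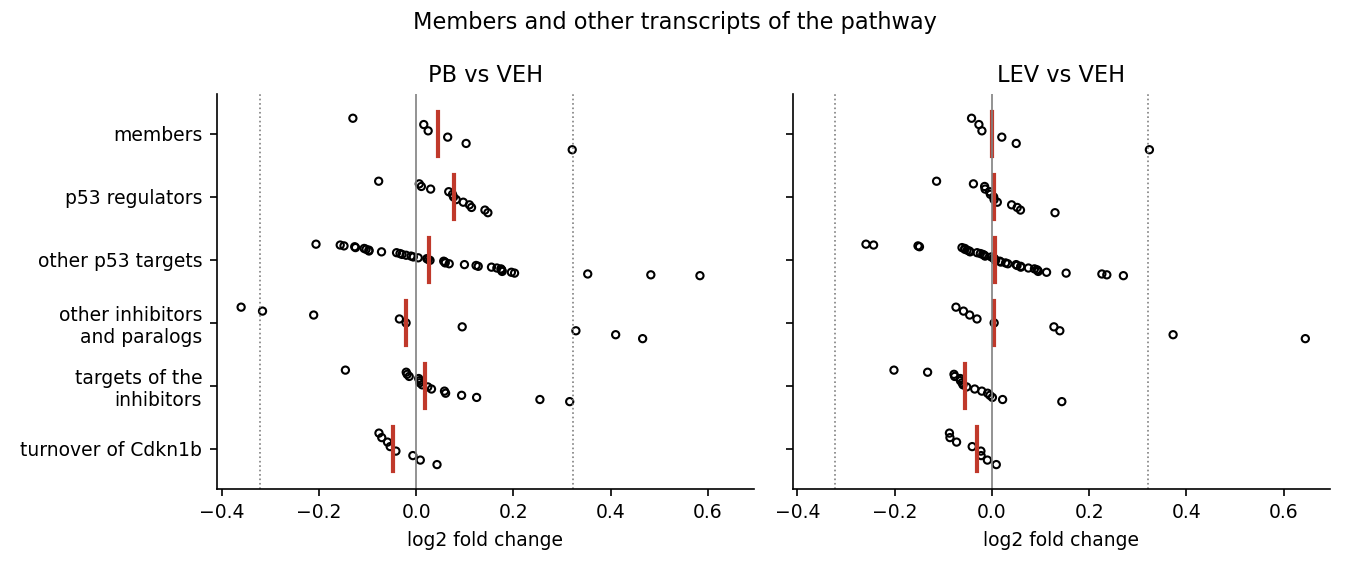
Log2 fold changes (horizontal axis) of each tested transcript of the 6 members and the 5 pathway lists for PB against VEH and LEV against VEH, with a red bar at each median and dotted lines at the fold limit. No transcript passed both limits, and the medians lie close to 0, at 0.08 for the p53 regulators and 0.03 for other p53 targets between PB and VEH.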

How the data were processed

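Hippocampal RNA from 41 of 42 rat pups was analysed. As the paper's methods and the submitters' processing notes give it, the authors aligned trimmed reads with STAR 2.7.3a to rn6, and the deposited values are estimated counts per RefSeq transcript from the Partek E/M algorithm, before normalization. Of these, 13.7% were not whole, and all were rounded. The authors' deposited table of DESeq2 comparisons was not used.

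Counts were analysed in R 4.3.3 with edgeR 4.0.16: TMM, effective library sizes of 9588079 to 13786159, filterByExpr with treatment as group, and glmQLFit and glmQLFTest with treatment and form of sample code as additive terms. P-values were adjusted by Benjamini-Hochberg over 13062 transcripts. The procedure was tested on simulated data. One animal per litter was taken per group, and each animal was 1 replicate. Correlations used log2 CPM (prior count 2) and 100000 permutations. DESeq2 1.42.0 was an alternative, among others given in the closing section. The members, the gene lists, the rule for named genes (in each pathway list, the 3 transcripts with the smallest p, of which some regulators are not reported here) and the tests were chosen with earlier results of these data known. Motifs were sought in RefSeq promoters, and all 6 genes were matched.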

Additional observations from a re-analysis of the deposited data

Results flagged for a closer look

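Each member was examined for an animal apart from its group, within each treatment and form of code (36 sets of animals). In 2 sets the gap between the lowest animal and the next, relative to the range, passed Dixon's limit, and chance gives about 1 in 20. Both came from PB animal 2 among PB animals 1 to 6, with Ccng1 at 2069 normalized counts where the next lowest was 2613, and Cdkn2c at 42.7 where the next lowest was 80.0.

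The VEH animal that is labelled as excluded was in no comparison. Scaled together with the others, its Cdkn1a was 225.9 normalized counts, above the 82.5 to 141 of the other VEH animals and above all 41 animals (highest 214.5). Its other 5 members lay below the VEH range, with Cdkn1b at 419 where the lowest VEH animal was at 594, Gadd45a at 47.1 (lowest 77.0), Cdkn2c at 48.1 (lowest 58.2), Mdm2 at 463 (lowest 497) and Ccng1 at 2669 (lowest 2693).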

How the results depend on the processing

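The members were refitted under 17 alternatives, of which 2 (marker sums as covariates) were chosen after seeing the data, and in 41 fits that each left out 1 animal. The number of members with an effect that differed between forms of code was 0 wherever it was refitted. Members called stayed at 0 in each comparison, except for PB against VEH at 1 (Cdkn1a, 0.33, adjusted p = 0.0409) after subtraction of batch effects followed by DESeq2 and at 1 (Ccng1) with no fold limit. Subtraction followed by DESeq2 is the alternative closest to the paper's methods, which remove batch and batch-by-treatment effects before DESeq2. With the form of code kept as a term in the DESeq2 model instead, Cdkn1a was at 0.32 with an adjusted p of 0.0663 and was not called. The paper's discussion reports an increase of Cdkn1a after PB, which the main fit here did not call. Ccng1 between PB and VEH had an adjusted p of 0.168 with no batch term and of 0.126 with all 14 VEH animals. Over all transcripts, calls between PB and VEH (79) were 17 in animals 1 to 6 alone, 168 in animals 7 to 14 alone, 704 with no fold limit and 15 at a fold of 1.5, and 52 (without PB animal 7) to 115 (without PB animal 5) with 1 animal left out. Between PB and LEV (76) they were 24 in animals 1 to 6, 34 with all 14 VEH animals, 581 with no fold limit, 20 at a fold of 1.5 and 42 with the oligodendrocyte covariate, and 39 (without PB animal 7) to 101 (without PB animal 5) with 1 left out. Between LEV and VEH (0) they were 170 in animals 1 to 6, 6 in animals 7 to 14, 13 after subtraction, 5 with DESeq2, 5 with a batch-by-treatment term, 1 with no filter, 1 at a mean of 50 counts, 1 with no fold limit and 1 with the oligodendrocyte covariate, and 0 to 4 (without VEH animal 4) with 1 left out. The causes were not tested.

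Signs turned only in differences near 0. Cdkn1a between PB and LEV was 0.0025 with no batch term, 0.019 with a batch-by-treatment term, 0.014 after subtraction, 0.20 in animals 1 to 6, 0.00043 with all 14 VEH animals, 6.0e-05 and 0.082 with the choroid plexus and oligodendrocyte covariates, and -0.064 to 0.047 with 1 animal left out. Cdkn2c between PB and VEH was -0.013, -0.015 and -0.18 with the batch-by-treatment term, after subtraction and in animals 1 to 6, and -0.031 to 0.079 with 1 left out. In animals 1 to 6, Cdkn2c was also 0.070 for LEV against VEH and -0.25 for PB against LEV, Cdkn1b was 0.018 and Ccng1 0.0025 for LEV against VEH. With all 14 VEH animals, LEV against VEH was 0.021 for Cdkn1b and 0.0098 for Cdkn2c. Gadd45a was -0.067 between PB and LEV in animals 7 to 14, and -0.11 between LEV and VEH with the oligodendrocyte covariate. With 1 left out, Gadd45a between PB and LEV ranged from -0.0045 to 0.090 and Cdkn1b between LEV and VEH from -0.049 to 0.0036.

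Animal numbers are shared between groups, but the labels do not say that a number stands for a litter. Same-numbered animals did not deviate together as a set. The median r was -4.5e-05 over 40 pairs (-0.332 to 0.329, with 10 over 0.1), and 7 of 41 animals were most like their own number. Without the litters, this check cannot show whether litter mates varied together. With the animal number as a replicate block, 55, 0 and 63 transcripts were called for PB against VEH, LEV against VEH and PB against LEV, with 0 members called. Under the block Ccng1 between PB and VEH was -0.14 (adjusted p = 0.0690), and Cdkn1a between PB and LEV was 0.0048. The intervals of Cdkn1a, Cdkn2c and Gadd45a were the widest of the 6 members. These had about 100 counts per animal, and their spread between animals beyond counting error was 19.2%, 17.4% and 15.0%.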

Other observations

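Genes of mitosis, which mark dividing cells, were read from a list of 15 transcripts. Their sum was 1927 ± 111 normalized counts in VEH (SD, n = 13), 2225 ± 445 in PB (SD, n = 14) and 1913 ± 202 in LEV (SD, n = 14). The 2 forms of code are given apart here. In animals 7 to 14 the sum was 2470 ± 328 in PB (SD, n = 8) and 1923 ± 125 in VEH (SD, n = 7), and 7 of these 8 PB animals lay above the VEH range of 1764 to 2197. In animals 1 to 6 it was 1898 ± 374 in PB (SD, n = 6) and 1931 ± 105 in VEH (SD, n = 6), and PB animal 2, at 1146, was the one PB animal below that range. The rest of PB animals 1 to 6 lay between 1973 (animal 3) and 2134 (animal 1), all above this VEH mean, so the lower PB mean rests on animal 2. The effect of PB differed between the forms of code at an unadjusted p under 0.05 for 5 of the 15 transcripts, by edgeR's interaction test, and for 0 at an adjusted p under 0.05. The smallest were Mki67 (9.3e-05, adjusted 0.0807), Kif11 (0.00029, adjusted 0.103) and Cenpf (0.0012, adjusted 0.158). Between PB and LEV all 15 log2 differences were positive (median 0.19) and 1 was called (6.67%, beside 0.582% of all transcripts), Cenpf, a kinetochore protein, at 213 ± 63.0 in PB and 160 ± 28.0 in LEV (log2 difference 0.40, SE 0.10, edgeR adjusted p = 0.0177). Between PB and VEH 12 of the 15 were positive, 8 had an unadjusted p under 0.05 (53.3%, beside 20.2% of all transcripts) and none was called. Cenpf was at 0.32 there (SE 0.10, adjusted p = 0.0596). The mitosis sum and Ccng1 gave r = 0.575 over the 41 animals (permutation p = 0.00999, adjusted 0.132 over 66 relations) and rho = 0.398 (permutation p = 0.0187, adjusted 0.196). Pearson's r was 0.918 in animals 1 to 6, 0.205 in animals 7 to 14, and 0.379 without PB animals 2 and 11.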
